A study of Mus musculus with 28 samples.

Results

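Brg1 is the ATPase of the BAF chromatin remodelling complex. The regions described here are the places where a FLAG-tagged Brg1 was enriched near the start of a gene in mouse mesodermal cultures. Merging the lists of the 3 anti-FLAG replicates wherever they shared 1 bp gave 13843 regions. Of these, 2390 were present in at least 2 replicates and are called Brg1-bound. The 580 of them whose nearest edge lay within 2.5 kb of an annotated transcription start site (TSS) are the Brg1-bound promoter regions, and the other 1810 are distal. Since the regions were chosen by their FLAG enrichment and their distance to a TSS, FLAG values and distances are given only as a description.

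The cultures were embryonic stem cells (ESCs) aggregated as embryoid bodies for 2 days and then kept for 40 h with VEGF, Activin A and BMP4, and all libraries are from day 4. By the sample labels the line is Brg1f/f; Actin-CreER, in which tamoxifen activates Cre recombinase to delete the floxed Brg1 alleles. On day 2 the control cultures received the solvent tetrahydrofuran (THF) alone and the 4-OHT cultures received 200 nM 4-hydroxytamoxifen in THF. H3K27ac and Suz12 were measured in 2 control and 2 4-OHT replicates each, and H3K27me3 in 3 and 3. For the 3 FLAG libraries the labels give the same line with normal Brg1, whereas the methods of the study describe ESCs with a FLAG tag on the endogenous Brg1. FLAG was not measured after 4-OHT, and a control for 4-OHT in cells without Cre was not analysed here. The cultures are bulk samples, in which fewer cells of a type and less of a mark per cell cannot be told apart.

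Each list gives the chromosome, start and end of enriched regions with no score or count, so depth and signal are unknown. A value here is either the share of regions overlapped by a list or the length in bp that a list covers. These depend on what passed the threshold of each library. FLAG replicate 3 stood apart, with 192 regions against 8021 and 8257 in replicates 1 and 2. H3K27me3 replicate 1 stood apart in both conditions, with no region wider than 9300 bp against at least 33350 bp for the widest region of each other H3K27me3 list. For H3K27me3, the differences in overlapped share and covered length are also given with replicate 1 of 1 condition left out. For the share of TSS windows, replicate 1 of both conditions was left out. The counts of merged H3K27me3 regions are given with all replicates only. H3K27ac lay in both control libraries within 2.5 kb of a TSS at 11 of 12 mesoderm marker genes and at 6 of 10 pluripotency markers. The counts were 0 of 7 for neural, 0 of 6 for endoderm, 1 of 6 for cardiomyocyte and 0 of 3 for blood markers. H3K27me3 lay there in at least 2 control libraries at 8 of 12 mesoderm, 5 of 10 pluripotency and 7 of 7 neural markers. For endoderm, cardiomyocyte and blood it was 2 of 6, 1 of 6 and 0 of 3. The mesoderm marker Kdr had H3K27me3 in all 3 control libraries and H3K27ac in neither. The planned markers Sox1 and Spi1 have no values here.

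BAF complexes use ATP to slide or evict nucleosomes and so change how open the DNA of promoters and enhancers is. Acetylation of lysine 27 on histone H3 (H3K27ac) marks active promoters and enhancers. Trimethylation of the same residue (H3K27me3) is written by Polycomb repressive complex 2, of which Suz12 is a core subunit, and marks silenced developmental genes. In the early embryo, Nodal, BMP, Wnt and FGF signals direct epiblast cells through the primitive streak into mesoderm.

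The following sequences are from the plus strand of mm9 and hold the whole region, or its central 300 bases where it was wider. They are shown because the values of these regions are described in the text. None overlaps an annotated exon or UTR. Capitals mark exact matches, on either strand, to any of 17 consensus sites that were searched.
Pdgfra, chr5:75546376-75546650: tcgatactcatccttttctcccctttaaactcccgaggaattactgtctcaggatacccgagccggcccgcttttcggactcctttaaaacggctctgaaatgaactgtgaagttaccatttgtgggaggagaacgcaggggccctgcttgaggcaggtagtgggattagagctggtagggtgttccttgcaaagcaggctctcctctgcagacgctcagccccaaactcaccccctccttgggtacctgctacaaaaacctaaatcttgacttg
Etv4, chr11:101646863-101647162: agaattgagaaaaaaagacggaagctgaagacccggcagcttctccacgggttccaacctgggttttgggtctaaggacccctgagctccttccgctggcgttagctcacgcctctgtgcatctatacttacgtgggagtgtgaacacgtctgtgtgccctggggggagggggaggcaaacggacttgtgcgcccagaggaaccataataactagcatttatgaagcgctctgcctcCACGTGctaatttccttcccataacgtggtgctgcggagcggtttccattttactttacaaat
Spry2, chr14:106297401-106297675: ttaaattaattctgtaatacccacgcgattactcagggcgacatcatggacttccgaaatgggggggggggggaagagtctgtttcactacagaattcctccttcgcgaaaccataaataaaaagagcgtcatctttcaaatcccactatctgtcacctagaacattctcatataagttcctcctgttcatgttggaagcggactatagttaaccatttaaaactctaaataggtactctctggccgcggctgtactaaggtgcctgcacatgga
Lefty2, chr1:182820588-182820887: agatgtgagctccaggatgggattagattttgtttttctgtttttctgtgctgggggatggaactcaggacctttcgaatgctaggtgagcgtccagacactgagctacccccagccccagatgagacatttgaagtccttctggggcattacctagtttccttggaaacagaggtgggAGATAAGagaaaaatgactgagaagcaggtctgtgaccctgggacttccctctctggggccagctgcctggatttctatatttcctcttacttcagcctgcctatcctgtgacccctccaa
Cer1, chr4:82531901-82532200: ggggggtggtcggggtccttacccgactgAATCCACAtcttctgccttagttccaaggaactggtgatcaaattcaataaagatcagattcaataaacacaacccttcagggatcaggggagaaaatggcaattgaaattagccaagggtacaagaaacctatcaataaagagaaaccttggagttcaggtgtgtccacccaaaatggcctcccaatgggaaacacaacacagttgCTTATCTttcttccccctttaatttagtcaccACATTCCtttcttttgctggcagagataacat
Tdgf1, chr9:110850413-110850712: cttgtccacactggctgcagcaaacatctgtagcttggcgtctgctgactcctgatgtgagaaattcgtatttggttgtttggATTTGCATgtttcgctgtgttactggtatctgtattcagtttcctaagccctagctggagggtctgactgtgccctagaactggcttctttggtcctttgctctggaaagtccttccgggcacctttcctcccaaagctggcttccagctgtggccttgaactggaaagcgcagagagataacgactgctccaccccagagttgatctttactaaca
Fgfr2, chr7:137408151-137408450: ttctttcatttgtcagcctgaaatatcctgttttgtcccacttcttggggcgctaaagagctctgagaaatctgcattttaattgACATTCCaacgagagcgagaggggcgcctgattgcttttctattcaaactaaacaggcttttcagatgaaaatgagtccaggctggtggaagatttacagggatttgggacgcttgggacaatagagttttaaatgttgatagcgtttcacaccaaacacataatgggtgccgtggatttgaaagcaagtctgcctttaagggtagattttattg
Casq2, chr3:101888201-101888400: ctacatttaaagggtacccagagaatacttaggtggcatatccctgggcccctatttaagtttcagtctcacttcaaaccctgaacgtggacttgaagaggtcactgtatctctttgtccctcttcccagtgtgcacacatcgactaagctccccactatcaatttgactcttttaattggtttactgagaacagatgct

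Pdgfra is a growth factor receptor of mesoderm. Etv4 and Spry2 belong to the FGF pathway, as a transcription factor and an inhibitor that FGF signals induce. Lefty2 and Cer1 are secreted inhibitors of Nodal, and Tdgf1 is the Nodal co-receptor. Fgfr2 is an FGF receptor and Casq2 is the calsequestrin of heart muscle. The capitals in the Cer1 region are a Foxh1 site (TGTGGATT), a GATA site (AGATAAG) and a Tead site (GGAATGT), and the Fgfr2 region holds a further Tead site. The Lefty2 region holds a GATA site, the Tdgf1 region an octamer (ATTTGCAT), bound by Pou5f1, and the Etv4 region an E-box (CACGTG). A match is a description of the letters only.

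The Brg1-bound promoter regions were narrow and mostly beside the TSS rather than on it. Their width ran from 25 to 1775 bp, with a median of 275 bp, the same median as the distal Brg1-bound regions. Only 43 of 580 held their nearest TSS, 219 had an edge 1 to 500 bp from it, 126 an edge over 500 and up to 1000 bp, and 192 an edge over 1000 bp away. The centre lay upstream of the TSS for 326 regions, or 56.2%. By the annotation, 276 were centred in an intron, 233 between genes and 71 in an exon. Replicates 1 and 2 alone gave 540 of the regions, and 30 were in all 3 replicates. Without replicate 1 the rule left 37 regions and without replicate 2 it left 29, so the set rests on these 2 libraries. At the distance limit, the regions at Ctnnd1, U6 and 5730522E02Rik lay just inside, 2487, 2486 and 2473 bp from a TSS. Those at Greb1l, Gm9530 and Mir101a lay just outside, at 2503, 2505 and 2507 bp.

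**Figure D1:**
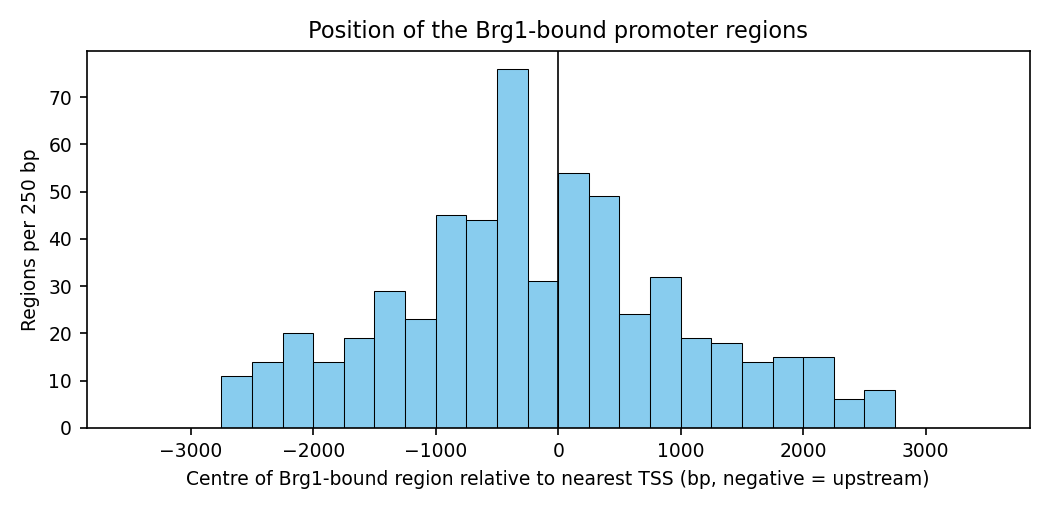
Number of Brg1-bound promoter regions per 250 bp, by the position of the region's centre relative to its nearest TSS (bp, negative values upstream). The bin just upstream of the TSS is lower than its neighbours on both sides, and 326 of the 580 centres are upstream.

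The widest regions were at Setd5, Dact2, Cer1 and Asb4, and the replicates differed at most of them in the length they covered. The 1775 bp region in an intron of Setd5, 71 bp from the Gt(ROSA)26Sor TSS, was covered for 1750 bp by replicate 1 and for 125 bp by replicate 2. At Cer1 the order was the other way, with 350 bp in replicate 1 and 1500 bp in replicate 2. At Dact2, a regulator of Wnt and Nodal signalling, the lengths were 1075 and 1150 bp. The Asb4 gene had 3 Brg1-bound promoter regions, of which the widest was in all 3 replicates with 750, 1175 and 50 bp. Otx2, Tdgf1 and Phc2 were also among the 10 widest regions that all 3 replicates shared.

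The 580 regions lay within 2.5 kb of a TSS of 461 protein-coding genes, which is 2.07% of the 22225 protein-coding genes. Of these genes 56 had at least 2 Brg1-bound promoter regions and 9 had at least 3. A distal Brg1-bound region also lay within 50 kb of a TSS for 110 of the 461 genes (23.9%), against 1333 of the 21764 genes without a Brg1-bound promoter region (6.12%). Both kinds of region come from the same FLAG lists, and a distal one can lie just past the 2.5 kb limit. The genes were not matched for H3K27ac either, so these shares are a description only. Of 16 gene lists, 15 had a larger share than this 2.07%, and lists of genes for signalling, cell adhesion and chromatin were all among the 15. Among 27 FGF and MAPK genes 9 had a Brg1-bound promoter region (33.3%), among 37 Nodal, BMP and TGF-beta genes 10 (27%), and among 36 immediate early and stress genes 9 (25%). Mesoderm surface receptors and migration genes followed with 6 of 30 (20%), of which Cer1 and Lefty2 are secreted Nodal inhibitors that are also in the Nodal list, the Wnt pathway with 7 of 42 (16.7%) and primitive streak and mesoderm transcription factors with 8 of 51 (15.7%). The shares were 14.8% for BAF genes, 14.0% for epithelial to mesenchymal transition (EMT), adhesion and matrix genes, 13.3% for Polycomb genes and 10.0% for endoderm regulators. At the other end were 2 of 37 neural and ectodermal regulators (5.41%) and 4 of 79 histone genes (5.06%). These histone genes were H2afy2, Hist1h2bh, Hist1h3f and Hist4h4, at 3 regions, since Hist1h2bh and Hist1h3f share a region. Also low were 1 of 39 Hox genes (2.56%) and 1 of 82 ribosomal protein genes (1.22%). No test of these shares was made, and several genes are in more than 1 list. The lists were chosen with earlier results of these data known. The 2.07% is over all protein-coding genes, and the lists were not matched to these for H3K27ac.

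**Figure D2:**
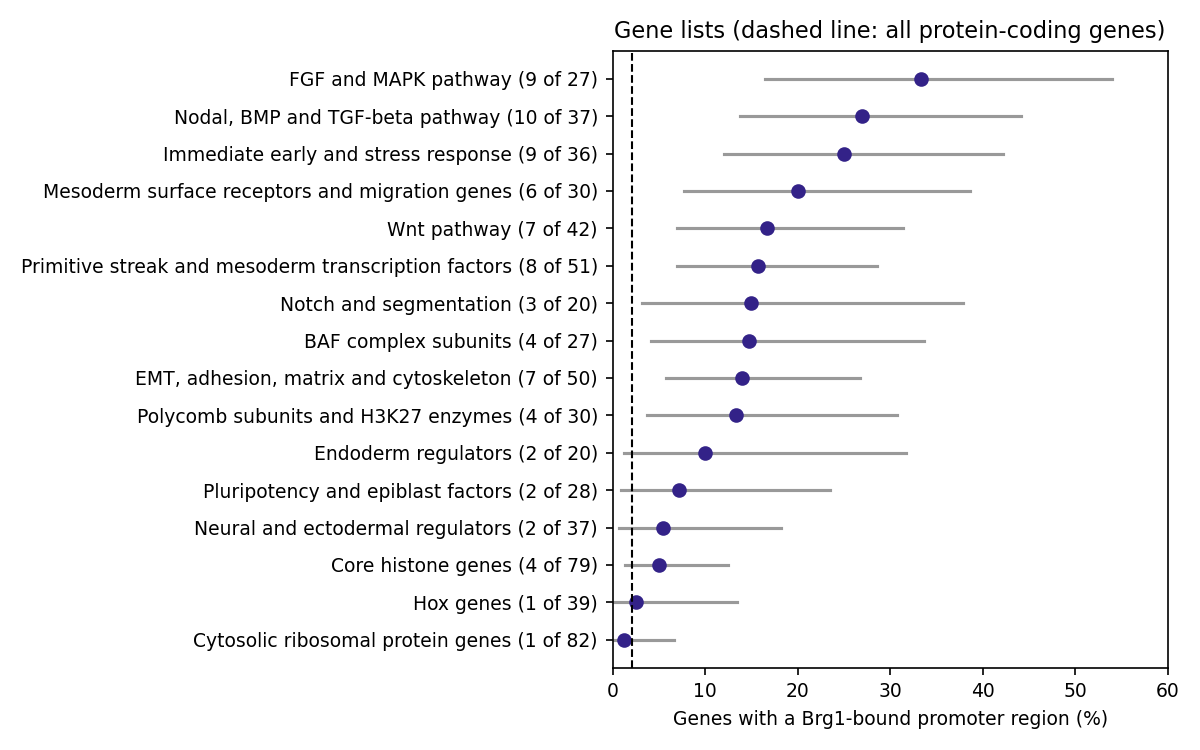
Share of the genes of each list (points, %) with a Brg1-bound promoter region, with exact binomial 95% intervals that cover counting error only (bars). The dashed line is the 2.07% of all protein-coding genes. FGF and MAPK genes are highest at 33.3%, and Hox and ribosomal protein genes are near the line.

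Within the FGF list the bound promoters covered receptors, inhibitors and transcription factors of the pathway. The receptors were Fgfr1 and Fgfr2, and the feedback inhibitors were Spry2, Spred1, Spred2 and the phosphatase Dusp4. The transcription factors were Etv1, Etv4 and Etv5. No promoter of an FGF ligand on the list was bound. In the Nodal, BMP and TGF-beta list, the bound promoters included the inhibitors Lefty2, Cer1, Bambi and Smad6, the co-receptor Tdgf1, the receptor Tgfbr1, the ligand Bmp7 and the targets Id1 and Id3. The Wnt genes were the receptors Fzd2, Fzd7 and Fzd10, the secreted inhibitors Dkk1 and Frzb, and the transcription factors Tcf7l1 and Tcf7l2. Genes of the BAF complex itself were present with Arid1a, Arid2, Smarcd2 and Bcl11b (4 of 27), and Polycomb genes with Phc1, Phc2, Cbx2 and Kdm2b (4 of 30).

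Of 19 genes picked from those that the text of the study names, Pdgfra and Frzb had a Brg1-bound promoter region. Pdgfra had 3, all upstream of the gene, with edges 2316, 1666 and 766 bp from the TSS. FLAG replicates 1 and 2 covered 225 and 50 bp of the most distant, 275 and 200 bp of the middle one and 100 and 100 bp of the nearest. The 2 regions at Frzb were covered for 50 and 425 bp and for 350 and 300 bp. Replicate 3 covered none of these. Kdr, Mesp1, Cxcr4, Snai1, Tbx5 and Nkx2-5 were among the 17 genes without one. This concerns the 2.5 kb around a TSS only. The study reports Brg1-bound enhancers near Kdr and Cyp26a1 and upstream of Mesp1, and it counted as enhancers only regions further away than that.

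Most Brg1-bound promoter regions carried H3K27ac in control cells. Of the 519 distinct windows of 2.5 kb around their nearest TSSs, 85.4% held H3K27ac in both control libraries. The share was 46.0% for the windows of all protein-coding transcripts. H3K27ac regions overlapped 74.7% and 80.2% of the 580 regions in the 2 control libraries, and 65.7% and 66.9% in the 2 4-OHT libraries. The groups did not overlap, and the 4-OHT libraries were lower. Control libraries averaged 77.4% ± 3.90 (SD, n = 2) and 4-OHT libraries 66.3% ± 0.853 (SD, n = 2), a difference of -11.1 percentage points. The two-sided exact permutation test gave p = 0.33, the smallest value that 2 against 2 libraries allow, so no comparison of 2 against 2 libraries here could pass a threshold of 0.05. The 4-OHT lists of H3K27ac were also shorter than the control lists, with 36000 and 32161 regions against 37590 and 41062. With all lists shortened to equal numbers of regions the difference was -10.0 percentage points. At the 30 regions in all 3 FLAG replicates, the share was 83.3% in each of the 4 libraries, so it did not fall there. Of the 25 merged H3K27ac promoter regions at these 30, 8 (32.0%) had a lower covered length in both 4-OHT libraries and 6 (24.0%) a higher one. Of all 580 regions, 363 were overlapped in all 4 libraries and 101 in none. Both control libraries and neither 4-OHT library overlapped 43 regions (7.41%), and the opposite pattern was seen at 0 regions. Of all 13418 promoter H3K27ac regions in both control libraries, a different base from the 580, 6.04% were overlapped by neither 4-OHT library. The opposite pattern was not counted over all promoters.

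**Figure D3:**
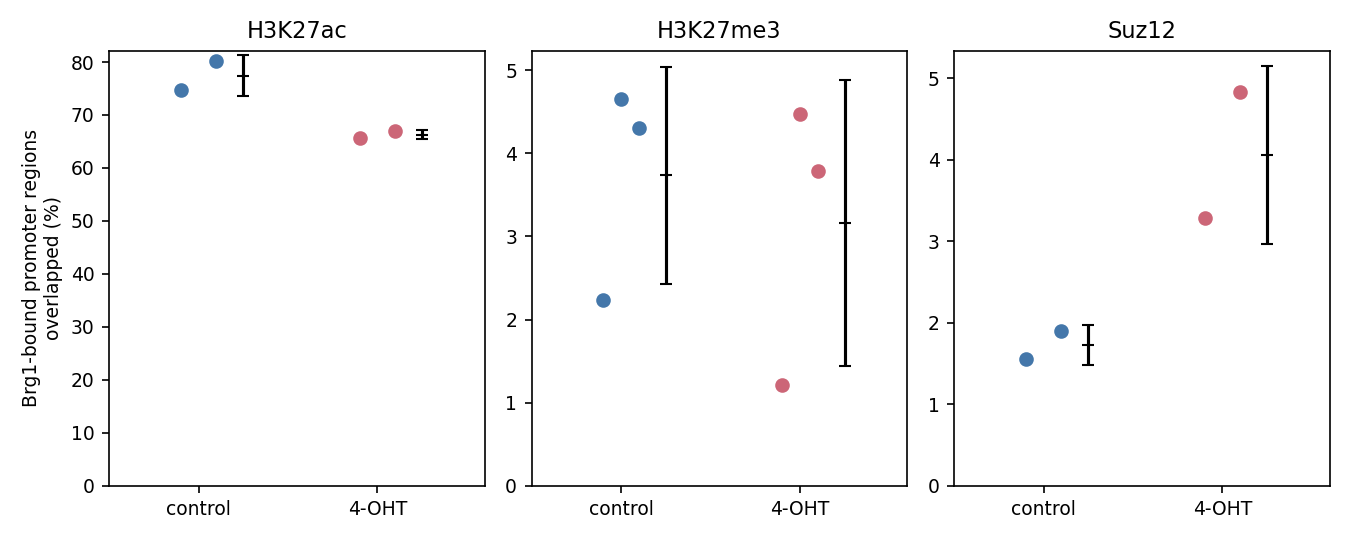
Share of the 580 Brg1-bound promoter regions overlapped by regions of each mark (%, axes from 0, a different scale for each mark). Each point is 1 library, and the black marks give the mean and SD. Both H3K27ac values after 4-OHT lie below both control values, both Suz12 values lie above, and the H3K27me3 groups overlap.

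Other classes of region were set beside the Brg1-bound promoters. At the distal Brg1-bound regions, H3K27ac overlapped 70.8% and 80.3% in control and 45.0% and 50.9% after 4-OHT. The share at promoters was thus close to the distal share in control and above it after 4-OHT. Within each library the log2 ratio of the promoter share to the distal share had a mean of 0.04 in control and 0.47 after 4-OHT (difference 0.43, exact permutation p = 0.33, n = 2 and 2). At 12976 control H3K27ac promoter regions without a Brg1-bound region, H3K27ac covered 1417 and 1392 bp within 2.5 kb of the TSS in control and 1545 and 1480 bp after 4-OHT. At the Brg1-bound promoters the covered length was 1998 and 2173 bp in the control libraries against 1817 and 1875 bp in the 4-OHT libraries. The covered length was therefore lower in both 4-OHT libraries at the Brg1-bound promoters (ratio of means 0.885) and higher in both at the other promoters (ratio 1.08). The log2 ratio of the first to the second within each library was 0.50 and 0.64 in control and 0.23 and 0.34 after 4-OHT (difference -0.28, exact permutation p = 0.33). The other promoters were chosen by their control H3K27ac. The Brg1-bound ones were chosen by FLAG, which was not measured after 4-OHT. The study reports that Brg1 and H3K27ac signals were highly correlated across the genome. The choice by FLAG may therefore also favour sites with more H3K27ac in control. Whether it did, here and in the counts of regions lower or higher after 4-OHT, was not tested.

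To follow each promoter, H3K27ac regions of all 4 libraries were merged, and the covered length in each library was compared. Of 397 merged promoter regions that held a Brg1-bound promoter region, 184 (46.3%) were covered for less in both 4-OHT libraries than in either control library, against 16.7% of all 14925 promoter regions. The opposite order was found for 72 (18.1%), against 38.5% of all. The median log2 ratio of 4-OHT to control length, with 25 bp added to each, was -0.12 with a Brg1-bound promoter region and 0.14 over all. The median width was 2500 bp for regions with Brg1 and 1050 bp for those without, so they were also compared within classes of width. Among regions under 500 bp, 15 of 20 with Brg1 were lower after 4-OHT (75%) against 19.1% of those without. Among regions of at least 4000 bp the shares were 28.4% and 12.1%. In each of the 5 width classes the share lower after 4-OHT was larger, and the share higher after 4-OHT smaller, for regions with Brg1.

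**Figure D4:**
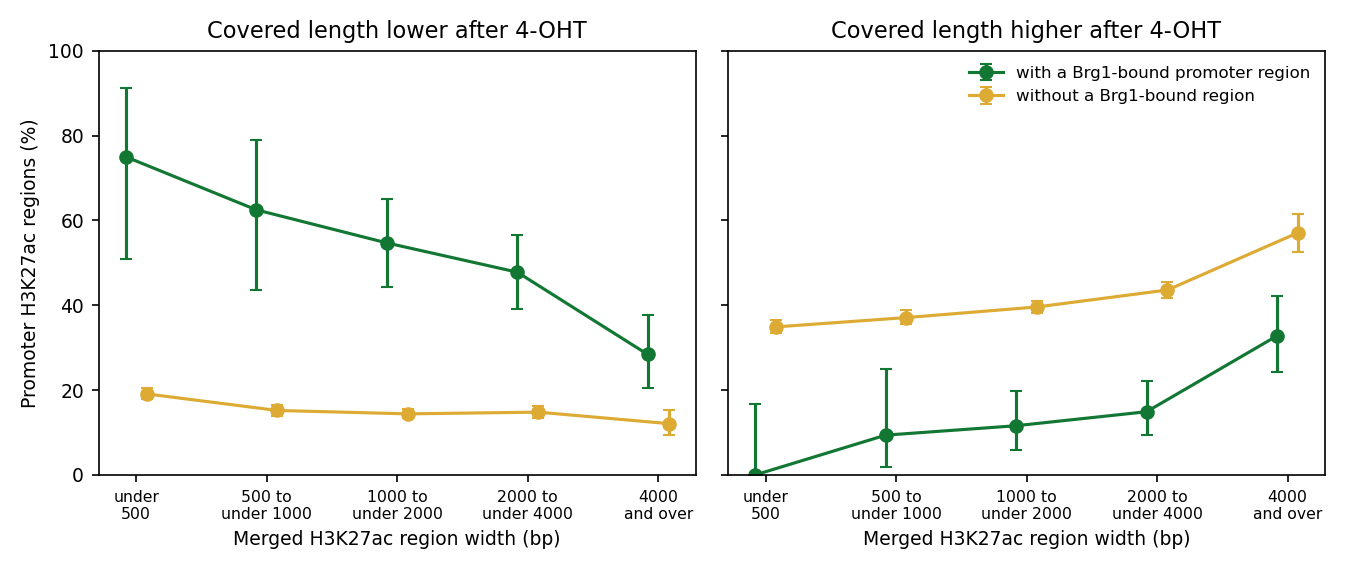
Share of merged H3K27ac promoter regions (%) whose covered length was lower (left) or higher (right) in both 4-OHT libraries than in both control libraries, by region width (bp). Bars are exact binomial 95% intervals that cover counting error only. The lower share with a Brg1-bound promoter region runs from 75% in the narrowest class to 28.4% in the widest, and is at most 19.1% without one.

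The counts by gene list that follow are descriptions of a few regions each, to be read beside the 46.3% lower and 18.1% higher of all regions with Brg1 and the 16.7% and 38.5% of all promoter regions, and no list was tested against these. Among mesoderm receptor and migration genes, 5 of 6 H3K27ac regions were lower in both 4-OHT libraries and none was higher, and the 5 include the Nodal inhibitors Cer1 and Lefty2. At Aplnr, the apelin receptor, the covered length was 2000 and 2275 bp with THF, then 1325 and 1950 bp with 4-OHT. At Ephb4, an ephrin receptor, it was 3750 and 4750 bp in the control libraries against 2875 and 2675 bp in the 4-OHT libraries. At Cer1 it was 1300 and 1850 bp with THF, then 0 and 325 bp with 4-OHT. The groups did not overlap at any of these genes, and Cer1 had the lowest values after treatment. At Pdgfra it was 3950 and 5450 bp in the control libraries against 2250 and 4125 bp in the 4-OHT libraries, so here the groups overlapped, as they did at Frzb.

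Of 8 H3K27ac regions at FGF and MAPK genes, 4 were lower after 4-OHT, at Fgfr1, Etv1, Etv4 and Etv5, and 1 was higher, at Dusp4. At Etv4 the lengths were 2175 and 2400 bp with THF, then 1500 and 1150 bp with 4-OHT, and at Fgfr1 3275 and 3475 bp in the control libraries against 2525 and 2600 bp in the 4-OHT libraries. At Dusp4 they were 5575 and 5500 bp with THF, then 6025 and 6150 bp with 4-OHT. The groups overlapped at the inhibitors Spry2, Spred1 and Spred2.

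In the Nodal, BMP and TGF-beta list, 4 of 9 regions were lower (Lefty2, Cer1, Id1 and Id3) and 2 were higher (Tgif1 and one of the regions at Smad6). Lefty2 had 4050 and 4500 bp in the control libraries against 3800 and 3925 bp in the 4-OHT libraries. Of 7 regions at Wnt genes 3 were lower, at Fzd7, Tcf7l1 and Tcf7l2, and none was higher. Of 8 regions at primitive streak and mesoderm transcription factors 4 were lower (Gata4, Zic2, Id1 and Id3) and none was higher. Gata4, a regulator of heart and endoderm, had 3325 and 3725 bp with THF, then 2175 and 3250 bp with 4-OHT. The Notch genes Dll3 and Lfng were lower as well, 2 of 3 regions, and at Lfng no 4-OHT library covered the 150 and 375 bp seen in control.

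Of 8 regions at immediate early and stress genes, 1 was lower (Gadd45b) and 3 were higher. The Gadd45b region is 150 bp wide, with 150 and 100 bp with THF, then 0 and 0 bp with 4-OHT, while the H3K27ac within 2.5 kb of the Gadd45b TSS was 875 and 550 bp in the control libraries against 1025 and 700 bp in the 4-OHT libraries. Junb, a subunit of the AP-1 factor, had 8250 and 8775 bp in the control libraries against 10400 and 11025 bp in the 4-OHT libraries. Klf6 had 10600 and 9300 bp with THF, then 11525 and 10850 bp with 4-OHT, and Gadd45g was the other higher one. Of the 2 epiblast genes, Otx2 was lower, with 8525 and 8250 bp in the control libraries against 6850 and 5900 bp in the 4-OHT libraries, while the groups overlapped at Tdgf1. Of 3 regions at genes of the BAF complex, Smarcd2 was lower (2750 and 3525 bp, then 1300 and 1475 bp) and Arid2 higher (5275 and 4800 bp, then 5650 and 5625 bp). Phc2, a subunit of Polycomb repressive complex 1, was the only one of 4 regions at Polycomb genes that was lower.

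Some control H3K27ac regions were not listed at all after 4-OHT. Of 391 promoter H3K27ac regions that were in both control libraries and held a Brg1-bound promoter region, 33 (8.44%) were overlapped by neither 4-OHT library, against 6.04% of all 13418 such regions. These shares were close, but the regions with Brg1 were again wider (median 2425 against 975 bp without). Below 500 bp, 56.5% of those with Brg1 and 14.8% of those without were absent, and from 1000 to under 2000 bp 9.47% and 2.51%. The widest were at Mkl1, a cofactor of serum response factor, with 1200 and 1950 bp in control, at Cx3cl1, a chemokine, with 1650 and 1725 bp, at Gm4766 with 1300 and 1725 bp and at Lphn3 with 175 and 1650 bp. Others were at Egflam (1100 and 1325 bp), S1pr5, a sphingosine phosphate receptor (700 and 1200 bp), and Casq2 (775 and 1175 bp). Each of these had 0 bp in both 4-OHT libraries. Without control replicate 1 the count was 56 of 414 in place of 33 of 391.

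H3K27me3 was present at few of the Brg1-bound regions but near more of their TSSs. In control, 22 of 580 regions (3.79%) were overlapped in at least 2 of 3 libraries, and 5 of these also carried H3K27ac in both control libraries. Requiring both remaining libraries after control replicate 2 or 3 was left out gave 10 or 11 regions, and 21 without replicate 1. Within 2.5 kb of the nearest TSS, 16.8% of the 519 distinct TSS windows held H3K27me3 in at least 2 control libraries, beside 10.2% of the windows of all protein-coding transcripts. H3K27me3 overlapped 2.24%, 4.66% and 4.31% of the regions in control and 1.21%, 4.48% and 3.79% after 4-OHT. The groups overlapped, with the low value in replicate 1 of each condition. The means were 3.74% ± 1.31 and 3.16% ± 1.73 (SD, n = 3 each, exact permutation p = 0.6, two-sided). Without 4-OHT replicate 1 the difference turned from -0.575 to 0.402 percentage points, and without control replicate 1 it was -1.32. Leaving out 1 library breaks a same-numbered pair. The share was lower after 4-OHT in 3 of 3 same-numbered pairs (exact sign-flip p = 0.250, the smallest that 3 pairs allow). With lists shortened to equal numbers of regions the difference was -0.172 percentage points.

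For the windows of 2.5 kb around the TSS the order was clearer. H3K27me3 was in the window for 17.1%, 17.9% and 18.3% of the regions in control and for 12.4%, 15.3% and 15.7% after 4-OHT. All 4-OHT values lay below all control values (difference -3.28 percentage points, exact permutation p = 0.100, the smallest that 3 against 3 allow). Without replicate 1 of either condition the difference was -2.59 percentage points. The covered length in these windows was 134, 264 and 264 bp in the control libraries and 77.4, 206 and 198 bp after 4-OHT (exact permutation p = 0.500). It was lower in 3 of 3 same-numbered pairs, and the exact sign-flip test over pairs gave 0.250. The difference in mean length was -59.8 bp, and it was -103 bp without control replicate 1 and -18.2 bp without 4-OHT replicate 1. The control H3K27ac promoters without Brg1 were lower as well, with a ratio of 4-OHT to control means of 0.667 for the covered length and 0.760 for the share overlapped, beside 0.729 and 0.846 at the Brg1-bound promoters. The 4-OHT lists of H3K27me3 were also shorter than the control list of the same number, with 10394, 7872 and 6787 regions against 16959, 8798 and 8977.

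Among 32 merged H3K27me3 promoter regions that held a Brg1-bound promoter region, 6 (18.8%) were covered for less in every 4-OHT library than in every control library, against 10.3% of all 5364, and 0 were covered for more, against 0.354%. Compared within same-numbered pairs, 19 of 32 (59.4%) were lower in all 3 pairs, against 39.2% of all, and 1 was higher in all 3, against 0.988%. With 32 regions the 95% interval of the 18.8% ran from 7.21 to 36.4% and includes the share over all regions. That of the 59.4% ran from 40.6 to 76.3%, and both intervals cover counting error only. The 32 regions were wider (median 1725 bp against 1075 bp over all) and were not compared within classes of width. The median log2 ratio of length was -0.32 at these regions and -0.52 over all. The regions lower in every library were at Fgfr2, Ccdc33, Ntn1, Grin1, Nexn and Cdh3. At Fgfr2 the lengths were 350, 500 and 25 bp in the control libraries and 0, 0 and 0 bp after 4-OHT, while within 2.5 kb of its TSS they were 1387, 3237 and 2612 bp in the control libraries and 0, 1200 and 500 bp after 4-OHT. At Ccdc33 they were 1425, 1425 and 750 bp in the control libraries and 0, 100 and 0 bp after 4-OHT. At Ntn1, which encodes the guidance molecule netrin, they were 1650, 1725 and 1750 bp in the control libraries and 1525, 1575 and 1425 bp after 4-OHT, a smaller difference.

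The longest H3K27me3 at a Brg1-bound promoter was at Gbx2, a homeobox gene of the brain, with 11475, 21200 and 20425 bp in the control libraries and 7425, 19600 and 19350 bp after 4-OHT. At Hoxb3 it was 3225, 7200 and 7300 bp in the control libraries and 2200, 6850 and 6300 bp after 4-OHT. At Irx3, another homeobox gene, it was 4575, 7025 and 6975 bp in the control libraries and 3500, 6950 and 6825 bp after 4-OHT. At each of these the groups overlapped, with replicate 1 short in both conditions, and the 4-OHT value was the lower one in every same-numbered pair. At Lfng the order of the pairs was reversed, with 0, 125 and 1100 bp in the control libraries and 425, 1050 and 1425 bp after 4-OHT.

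Suz12 overlapped 1.55% and 1.90% of the Brg1-bound promoter regions in control and 3.28% and 4.83% after 4-OHT. Both 4-OHT values were above both control values, at 2.35 times the control mean (exact permutation p = 0.33, n = 2 and 2). At control H3K27ac promoters without Brg1 the ratio was 2.28, so the ratio at the Brg1-bound promoters was close to that elsewhere. The 4-OHT lists of Suz12 were also longer than the control lists, with 3654 and 4016 regions against 2951 and 2913, and with all lists shortened to equal numbers of regions the difference in share was 1.64 in place of 2.33 percentage points. Suz12 was at 5 regions in both control libraries, at the genes 9030622O22Rik, Gata4 (2 regions), Ntn1 and Lemd1, and at 17 regions in both 4-OHT libraries. At 7 regions (1.21%) it was in both 4-OHT libraries and neither control library. These counts were not made for other promoters, so they only describe the Brg1-bound ones. Of the 519 TSS windows, 5.59% held Suz12 in both control libraries, beside 4.19% of the windows of all protein-coding transcripts. The 95% interval of the 5.59% ran from 3.77 to 7.93% and includes the share over all windows. Of the 17 regions, 12 had H3K27me3 in at least 2 control libraries and 9 in at least 2 4-OHT libraries.

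Of 22 merged Suz12 promoter regions with a Brg1-bound promoter region, 11 (50.0%) were covered for more in both 4-OHT libraries, against 35.2% of all 2195. A further 2 (9.09%), at Ntn1 and 9030622O22Rik, were covered for less, against 8.11%. With 22 regions the 95% interval of the first share ran from 28.2 to 71.8% and includes the share over all regions. At Fgfr2, Suz12 covered 100 and 225 bp with THF, then 1150 and 1375 bp with 4-OHT. No H3K27ac library covered any of the 2.5 kb around this TSS. At Pdgfra, Suz12 within 2.5 kb of the TSS was 725 and 1275 bp in the control libraries against 1425 and 2875 bp in the 4-OHT libraries. At Runx1, a blood regulator, it covered 375 and 575 bp with THF, then 1025 and 2050 bp with 4-OHT, while H3K27me3 there was 750, 1900 and 1875 bp in the control libraries and 350, 1550 and 1550 bp after 4-OHT. The region at Zfpm1, a cofactor of GATA factors, had 0 bp in both control libraries and 500 and 1175 bp after 4-OHT. At Egr3, an immediate early gene, the merged region that holds Brg1 also had 0 bp in both control libraries, with 250 and 750 bp after 4-OHT, but within 2.5 kb of the Egr3 TSS Suz12 covered 2652 and 2677 bp with THF, then 2777 and 3427 bp with 4-OHT.

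**Figure D5:**
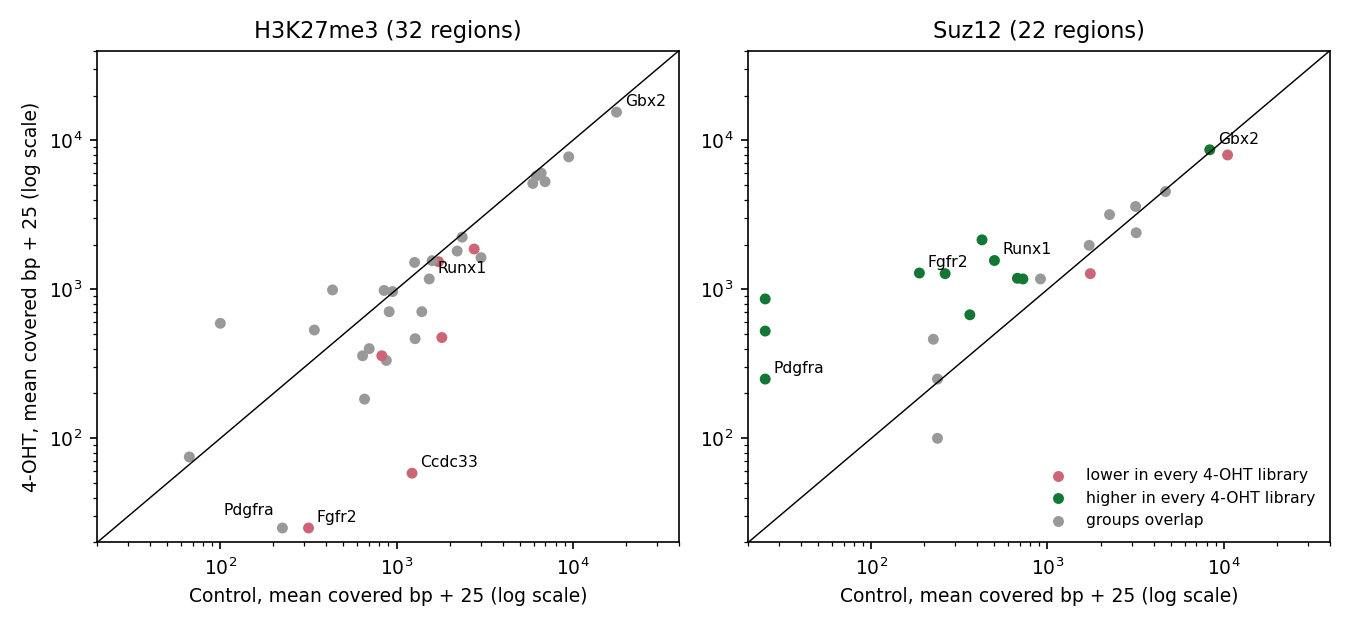
Mean covered length (bp, 25 bp added, log axes) in control against 4-OHT libraries for the H3K27me3 (left) and Suz12 (right) promoter regions that hold a Brg1-bound promoter region. Each point is 1 merged region, coloured by whether all 4-OHT libraries were below or above all control libraries, and the line marks equal lengths. Fgfr2 and Ccdc33 lie far below the line for H3K27me3, and 11 Suz12 regions lie above it in green.

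The DNA of the Brg1-bound promoter regions was poorer in CpG than promoters are, although the nearest promoters were not. In 300 bp around the centre the median GC content was 48.0%, and 14.7% of the windows were CpG-rich, defined as at least 50% GC with an observed to expected CpG ratio of at least 0.6. Of the distal Brg1-bound regions 1.49% were CpG-rich, and of the control H3K27ac promoter regions without Brg1 50.5%. The promoters nearest to the Brg1-bound regions, from 250 bp before to 50 bp after the TSS, were CpG-rich in 47.4%, beside 40.2% of all protein-coding promoters. Brg1-bound regions with an edge within 500 bp of the TSS were CpG-rich in 21.8%, and those further away in 8.81%.

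Consensus sites were counted in the same windows. The Sp and Klf site (GGGGCGGGG) was in 2.76% of the Brg1-bound windows, 12.9% of all coding promoters and 8.71% of H3K27ac regions without Brg1. The Pou5f1 octamer was in 3.10% of the windows, 1.99% of distal Brg1-bound windows, 0.971% of H3K27ac regions without Brg1 and 1.41% of all promoters. The Foxh1 site was in 1.72%, 1.66%, 0.609% and 0.778% of the same 4 sets, and the GATA site in 3.79%, 6.41%, 2.16% and 2.61%. The AP-1 site (TGANTCA) was in 5.52% of the Brg1-bound promoter windows, 9.83% of the distal windows and 6.60% of all promoters. The T-box site (AGGTGTGA), bound by factors such as Brachyury and Eomes, was in 1.72%, 1.77% and 1.08% of these. The Tead site was in 4.14%, 5.52% and 3.43%, and the E-box in 5.34%, 3.48% and 7.29%. For the TATA box (TATAAAA), the Fox site (TGTTTAC), the Tcf and Lef site (CTTTGAT) and the Zic site (CAGCAGG), the shares were 4.14%, 3.28%, 4.31% and 9.31% at the Brg1-bound promoter regions and 4.53%, 3.05%, 3.15% and 11.0% of all promoters. For the NF-Y site (CCAATCA) and the CRE (TGACGTCA) they were 2.59% and 0.517%, beside 7.05% and 2.03%. The Nrf1 (GCGCATGCG), Yy1 (AAGATGGCG) and ETS (ACCGGAAGT) sites were in 1, 1 and 0 of the 580 windows, and in 1.96%, 1.98% and 1.16% of all promoters. The windows of all promoters run from 250 bp before to 50 bp after the TSS, so they differ in position from the Brg1-bound windows. In such windows at the promoters nearest to the Brg1-bound regions, the Sp and Klf site was in 17.1% and the NF-Y site in 8.29%. There the CRE was in 3.08%, the Nrf1 site in 2.31%, the Yy1 site in 0.771% and the ETS site in 0.578%. The octamer was in 3.66% and the T-box site in 1.73% of these nearest promoters, not less than in the Brg1-bound windows. For the GATA and Foxh1 sites the shares there were 2.70% and 0.385%, lower than in the Brg1-bound windows. Each count behind the shares at the Brg1-bound promoter regions is small, at 10 for Foxh1 and 18 for the octamer, and no test was made.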

How the data were processed

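ChIP-seq was performed in mouse mesodermal cultures in 28 samples, of which 11 are inputs, and for the rest the authors deposited 17 lists, 1 per library, of regions enriched over input by a Poissonian model. In the list headers the threshold is 1e-06 for FLAG, with a 2-fold enrichment, and 1e-12 for the other marks, read here as p-values. The submitters' processing notes name Bowtie and mm9. The deposited lists hold positions only, so the unit is an interval in bp without counts or signal, and read depth is unknown. Whether longer lists come from deeper libraries was not tested.

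Promoters were taken from the GENCODE vM1 annotation of mm9. Lists were compared by an overlap of 1 bp and by covered length, and conditions by two-sided exact permutation tests over libraries. Shares over regions have exact (Clopper-Pearson) 95% intervals. H3K27me3 samples of the same number were also compared as pairs, because their deviations correlated by 0.951, 0.890 and 0.835 over promoter regions. The labels give replicate numbers only. Replicate 1 stood apart in both conditions, which can raise all of these correlations, so they do not establish pairing. The check gave 0.426 for H3K27ac and 0.445 for Suz12 with 2 replicates each, which does not establish pairing. The regions and gene lists were chosen with earlier results of these data known, so list counts are descriptions.

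Named genes were up to 4 per list by width of the region and all of a list with up to 4, the 10 widest of all regions, in all 3 FLAG replicates, and among those without H3K27ac after 4-OHT, the 10 with most H3K27me3, those with Suz12 in both control libraries, genes named in the text of the study, and those at the distance limit. Other named genes, among them Junb, Aplnr and Ephb4 values, Nexn, Cdh3, Runx1 and Zfpm1, were chosen after their values were seen. The functions were tested on simulated regions. Scripts ran in Python 3.11.15 with SciPy 1.17.1, Matplotlib 3.10.9 and NumPy 2.4.6. Alternatives were other distances, overlaps, widths, windows, equal list lengths, pairing and each replicate left out.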

Additional observations from a re-analysis of the deposited data

How the results depend on the processing

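Of 113 alternatives, 99 kept the direction and, for counts, stayed within 1.5 times the value reported, 13 moved a count further and 1 reversed a direction. No test could pass a threshold of 0.05 in these designs, so the p-values say nothing about stability. The number of Brg1-bound promoter regions ran from 29 to 569 with 1 FLAG replicate left out, and the number of their protein-coding genes from 23 to 454, in each case lowest without replicate 2. The H3K27me3 share of regions differed by 0.402 percentage points, reversed, without 4-OHT replicate 1, and by -1.32 to 0.402 over the replicates left out. The count of control H3K27ac regions missing after 4-OHT, 33, was 57 when either control replicate sufficed, 79 when 4-OHT regions had to cover at least 50% of the control region, and 34 to 56 with 1 replicate left out. The count of regions with H3K27me3 in control, 22, was 10 for all 3 replicates, 104 for the 2.5 kb around the TSS, and 10 to 21 with 1 replicate left out.

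Alternatives chosen after seeing the data were counts of merged regions and the H3K27me3 windows without replicate 1. With equal numbers of regions per list, 175 of 387 H3K27ac regions with Brg1 were lower after 4-OHT (45.2%, against 15.4% of all). For regions within 1 kb of a TSS, 111 of 278 were lower (39.9%), a smaller count from fewer regions. With the replicate block, 19 rather than 6 H3K27me3 regions were lower. The paired sign-flip test kept the H3K27ac share difference of -11.1 percentage points (0.500, the smallest that 2 pairs allow), the H3K27me3 covered length difference of -59.8 bp (0.250) and the Suz12 share difference of 2.33 percentage points (0.500), and changed no other call. Narrow regions sit closest to the threshold of each list, and without depth per library a region that is not listed cannot be told from one just under that threshold.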
